A study of Homo sapiens with 4 samples.

Results

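Coding genes and long noncoding transcripts were compared between the treated and the untreated library labelled HepG2, which are 2 of the 4 RNA sequencing libraries of the series. Members were chosen by label alone: every row of the coding table (19739 genes) and of the long noncoding table (29119 transcripts) entered. The cells carry the label of HepG2, a line described by the submitters as human hepatocellular carcinoma, and the other 2 libraries come from Huh7, a second liver cancer line. The treated culture received RSL3@O2-ICG NBS with low-frequency ultrasound (LFS) over 24 h, and the untreated culture has the treatment entry "none". The labels do not expand NBS, and no library received the ultrasound, the carrier or RSL3 by itself, so their parts in a difference cannot be told apart. Each of the 4 groups holds 1 library. So no value has a replicate check, an SD or a test, and every difference is one between these cultures' libraries. In bulk RNA, fewer cells of one type and less RNA per cell cannot be told apart.

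RSL3 is a small molecule that binds GPX4, the selenium-containing enzyme that reduces lipid hydroperoxides inside membranes. When GPX4 is blocked, iron-driven lipid peroxidation can kill cells by ferroptosis. Cells under such stress commonly phosphorylate the initiation factor eIF2, which lowers general translation and raises translation of ATF4, a transcription factor for amino acid synthesis, amino acid import and tRNA charging.

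Levels are given as FPKM, fragments scaled by transcript length and library size, which allows levels to be compared between genes per unit of length. The measure of change is the log2 ratio of treated FPKM + 1 over untreated FPKM + 1, and folds are given on the same scale, on which a difference at a few FPKM comes out too small. A gene was measured when it reached 1 FPKM in at least 1 of the 2 libraries, and it is called higher or lower when the ratio was at least 2-fold. The depth inferred from the smallest values was 25700000 fragments untreated and 23200000 treated. At that depth 1 FPKM on 1 kb of transcript corresponds to 26 fragments untreated (exact 95% Poisson interval 17.0 to 38.1) and 23 treated (14.6 to 34.5). The intervals cover counting error only.

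Promoter stretches that hold known motifs come first, and whether a motif acts on its gene was not tested. The C/EBP-ATF response element (CARE, TGATGNAA) is the motif that ATF4 dimers are known to bind, and it was searched on both strands of RefSeq promoters (GRCh38.p14), each reaching from 250 bases before to 50 bases after a gene's start. Of 11834 measured coding gene names, 9595 had such a promoter. For genes with several listed starts, a match at any of them was counted. CARE was found in 2.68% of the measured genes with a promoter and in 4.46% of all 27305 gene names of the promoter table. The following stretches belong to 6 genes of amino acid supply, tRNA charging and the ATF4 network that were called higher. Capitals mark the CARE match, with 40 bases on each side, in the direction of transcription.
AARS (chr16:70289646-70289733, minus strand): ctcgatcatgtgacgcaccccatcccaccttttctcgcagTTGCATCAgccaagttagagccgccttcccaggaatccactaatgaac
ASNS (chr7:97872429-97872516, minus strand): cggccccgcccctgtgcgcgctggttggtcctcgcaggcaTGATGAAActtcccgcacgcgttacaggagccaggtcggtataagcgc
CARS (chr11:3057378-3057465, minus strand): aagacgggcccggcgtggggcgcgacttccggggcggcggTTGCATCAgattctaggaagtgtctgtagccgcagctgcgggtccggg
CEBPG (chr19:33374031-33374118, plus strand): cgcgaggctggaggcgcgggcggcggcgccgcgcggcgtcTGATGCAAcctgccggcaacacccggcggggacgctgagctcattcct
GARS (chr7:30594805-30594892, plus strand): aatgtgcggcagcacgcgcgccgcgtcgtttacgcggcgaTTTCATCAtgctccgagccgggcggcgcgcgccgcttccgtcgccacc
MARS (chr12:57488024-57488111, plus strand): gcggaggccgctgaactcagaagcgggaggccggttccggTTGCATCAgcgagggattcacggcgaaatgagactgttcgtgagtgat
In CEBPG and ASNS the match reads forward, and in AARS, CARS, GARS and MARS it reads on the opposite strand. The matches begin 42 and 68 bases before the start in CEBPG and ASNS, and 187, 2, 33 and 4 bases before it in AARS, CARS, GARS and MARS. CHAC1, which codes for an enzyme that cleaves glutathione, holds a match 209 bases before its start. A match is a description of the letters and was not measured as a binding site.

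A second set of stretches holds the motif of AP-1, the FOS and JUN dimers (TGANTCA, which reads the same on both strands apart from its middle base), in capitals. It was found in 6.75% of the measured genes with a promoter. Among the 15 genes with the highest ratios that reached 10 FPKM in at least 1 of the 2 libraries, 14 had a promoter and 5 of these held the motif: IL11, CD68, CLDN4, LCN2 and TM4SF19. The 3 of them whose exons share no bases with another gene are shown.
CLDN4 (chr7:73830746-73830881, plus strand): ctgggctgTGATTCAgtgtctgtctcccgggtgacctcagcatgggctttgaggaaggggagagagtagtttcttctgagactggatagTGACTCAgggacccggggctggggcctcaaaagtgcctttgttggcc
IL11 (chr19:55370513-55370599, minus strand): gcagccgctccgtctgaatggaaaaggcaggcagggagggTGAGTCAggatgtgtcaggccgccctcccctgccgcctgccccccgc
LCN2 (chr9:128149361-128149447, plus strand): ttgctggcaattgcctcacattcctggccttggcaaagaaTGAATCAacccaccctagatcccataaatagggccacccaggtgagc
CLDN4 holds 2 matches. AP-1 was found in 10.1% of the genes called higher and in 9.87% of those called lower. CARE was found in 4.44% of the higher and 2.15% of the lower genes. Of the motifs searched, the lysosomal CLEAR motif (TCACGTGA) was found in 2.22% of higher, 1.72% of lower and 2.43% of all measured genes with a promoter. The antioxidant response motif (TGACNNNGC) stood at 20.8%, 17.2% and 19.6%. Of the 49 genes with a promoter that were at least 4-fold higher, 10 (20.4%) held AP-1, 18 (36.7%) the antioxidant response motif, 2 (4.08%) CARE and 0 CLEAR.

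Most secreted liver proteins and most genes of liver transcription factors and metabolism were below 1 FPKM in both libraries labelled HepG2. Of 25 secreted liver proteins, 23 were below 1 FPKM in the untreated and 23 in the treated library, and 12 were listed at 0 in both, among them ALB, FGA, FGB, FGG and HP. Their summed level was 44.5 FPKM untreated and 50.5 treated, of which C3, a complement factor made in many tissues, held 35.6 in each. The same genes summed to 4128 and 3432 FPKM in Huh7. Of 16 liver transcription factors, 13 and 12 were below 1 FPKM, and FOXA2, GATA4, NR0B2, NR1I2 and PROX1 were listed at 0 in both. CEBPA was the only one called higher, at 0.514 and 6.34 FPKM, with 43.4% of its exonic bases shared with AC008738.3. Of 20 genes of liver metabolism, 16 were below 1 FPKM in each library. The exceptions were the urea cycle enzymes ASS1, at 620 FPKM untreated and 591 treated, and CPS1, at 171 and 74.8, with HPD at 2.92 and 2.61 and CYP3A5 at 2.55 and 2.19. CPS1 stood at 0.191 and 0.251 FPKM in Huh7. Of 9 oncofetal liver antigens, 5 reached 1 FPKM in at least 1 of the 2 libraries and 1 was called higher. The list summed to 49.0 FPKM untreated and 76.4 treated, against 1470 and 1117 in Huh7.

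Marker lists of other cell types were each present in part or not at all. Blood cell markers were below 1 FPKM for 11 of 12 genes in each library, with PTPRC, CD3D, CD3E, MS4A1, LYZ, TYROBP, AIF1 and FCER1G listed at 0 in both. Their summed level was 1.78 FPKM untreated and 21.8 treated, of which CD68, a lysosomal membrane protein, held 1.38 and 20.7, with 85.8% of its exonic bases shared with AC016876.2. Fibroblast markers were below 1 FPKM for 9 of 12 genes in each library and summed to 9.87 and 10.7 FPKM. Endothelial markers summed to 35.0 and 80.5 FPKM, of which ESAM, a junction adhesion protein, held 34.9 and 79.3, while KDR, FLT1, CLDN5 and EMCN were listed at 0 in both. Of 12 markers of simple epithelium, 6 untreated and 4 treated were below 1 FPKM. Of 8 measured, 3 were higher and 1 lower, against 6.7% and 2.43% of all genes. KRT8 stood at 890.4 and 749 FPKM and KRT18 at 273 and 344, while CDH1, the adhesion protein of most epithelia, stood at 0.266 and 0.00898. Of 13 markers of stratified epithelium, 10 and 9 were below 1 FPKM and none was called. They summed to 122 and 132 FPKM, against 43.6 and 43.9 in Huh7. Of 9 mesothelial and placental antigens, 5 reached 1 FPKM, led by FOLR1, a folate receptor, at 1606 and 3129 FPKM, which is within 2-fold. The 2 called members were both lower, against 2.43% of all genes, and the median log2 ratio was -0.20. They were ALPP (88.9 and 23.6 FPKM), with 20.6% of its exonic bases shared, and ALPG (3.33 and 1.01). The list summed to 1735 and 3204 FPKM here and to 0.468 and 0.775 FPKM in Huh7. The label is therefore kept as a label only, and no cell type is assigned.

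**Figure D1:**
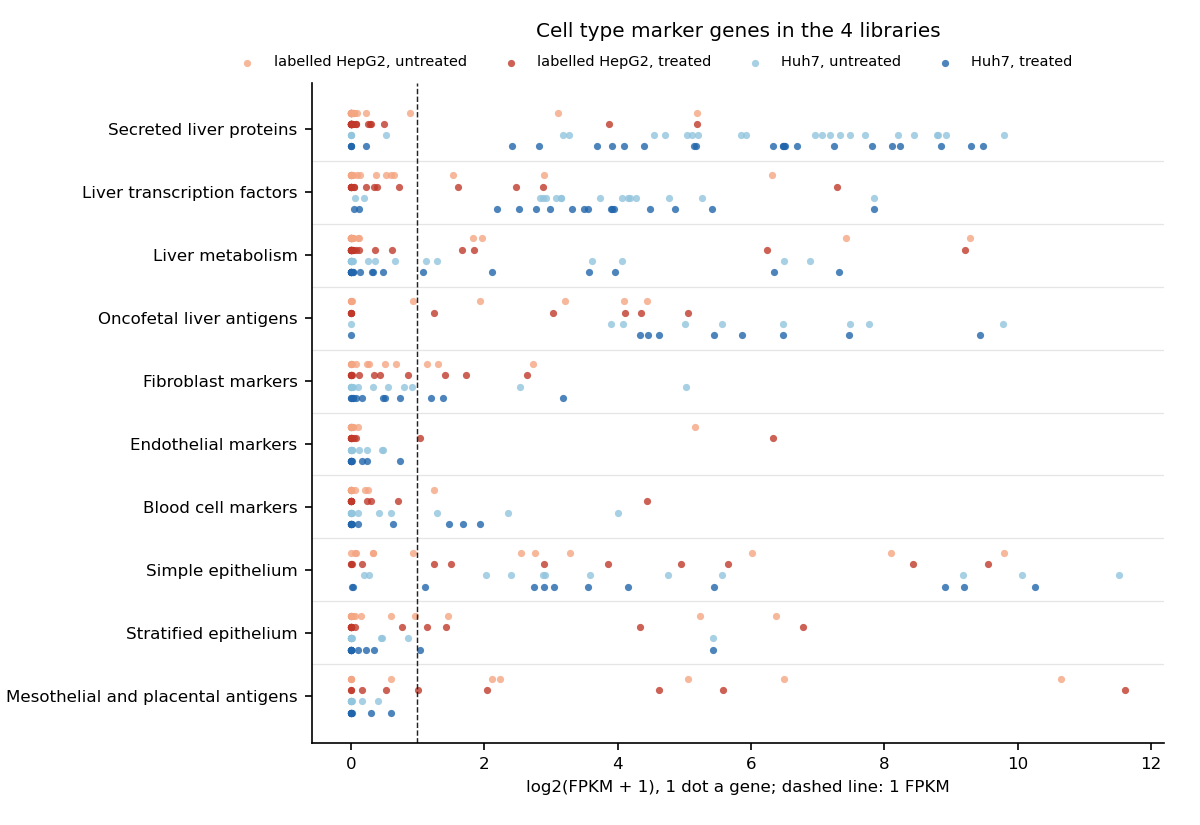
Marker genes of 10 cell type lists in the 4 libraries, with 1 dot a gene, log2(FPKM + 1) on the horizontal axis and a dashed line at 1 FPKM. The 25 secreted liver proteins lie at the left for both libraries labelled HepG2, apart from C3 and RBP4, and spread to the right for Huh7.

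Most transcripts differed little, and more were higher than lower after treatment. Of 11843 measured coding genes, 794 (6.7%) were called higher and 288 (2.43%) lower, and 72.0% lay within 1.5-fold. At least 4-fold, 68 genes were higher and 18 lower. The median log2 ratio over all measured genes was 0.09, and the middle 95% of genes lay between -0.99 and 1.37. The imbalance was smallest among the most abundant genes. Among 1428 genes that reached 50 FPKM or more, 4.97% were higher and 4.69% lower, with a median of -0.13. Among 5093 genes between 10 and 50 FPKM, 5.67% were higher and 2.73% lower, with a median of 0.05. Among 963 genes between 1 and 2 FPKM, 7.27% were higher and 1.04% lower, with a median of 0.28. Genes at 1 FPKM or more numbered 11156 untreated and 11696 treated. By position, chromosome 19 had the highest median of the nuclear chromosomes, 0.22 over 858 genes, with 100 higher and 11 lower, and the 13 mitochondrial genes had the lowest, -0.56.

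**Figure D2:**
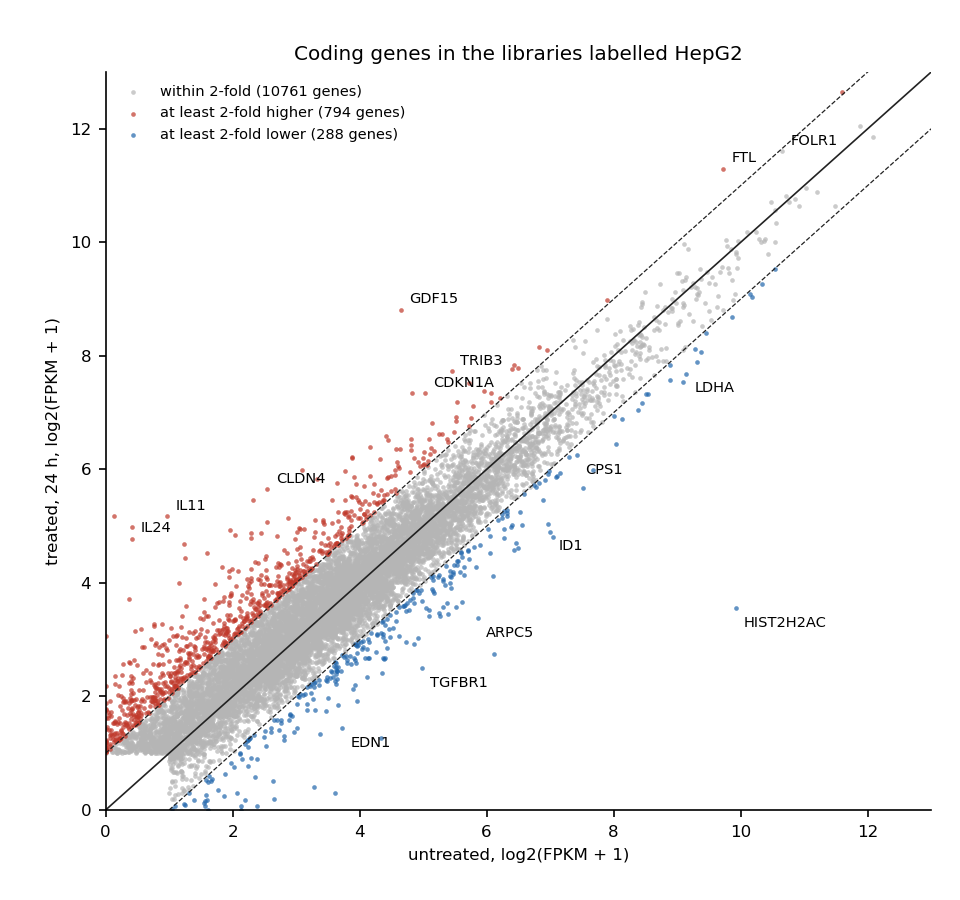
Each dot is a measured coding gene, with its untreated level on the horizontal and its treated level on the vertical axis, both as log2(FPKM + 1). The solid line marks equal levels and the dashed lines 2-fold. Of the genes, 794 lie above and 288 below the dashed lines, and HIST2H2AC lies farthest from them.

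Secreted stress signals had some of the largest ratios. IL24, a cytokine of the IL-10 family, stood at 0.334 FPKM untreated and 26.5 treated, a ratio of 20.6-fold. IL11, a cytokine that signals through gp130, stood at 0.962 and 35.3 FPKM, or 18.5-fold. GDF15, a circulating signal of cell stress, stood at 24.2 and 449 FPKM, or 17.9-fold, and was the most abundant of the 3 in both libraries. Of 21 stress cytokines and growth factors, 13 were measured, 7 were higher and none was lower, with a median log2 ratio of 1.07. The other higher members were INHBE (0.244 to 2.77 FPKM), the macrophage growth factor CSF1 (5.08 to 14.7), VEGFA (15.7 to 36.3) and ANGPTL4 (0.558 to 2.26). In Huh7, IL24 was listed at 0 in both libraries and IL11 stood at 0.322 and 0.126 FPKM, while GDF15 stood at 138 and 345 FPKM. No difference between the lines was tested, since each group holds 1 library. Of 12 chemokines, 5 were measured and 1, CXCL2 (1.17 to 3.61 FPKM), was higher.

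The other genes of largest increase were surface proteins and enzymes. CHAC1 stood at 1.34 and 24.7 FPKM. The cell adhesion protocadherin PCDH1 stood at 0.289 and 12.1 FPKM, the tight junction protein CLDN4 at 4.85 and 49.4, and CDCP1, a transmembrane substrate of SRC kinases, at 1.23 and 15.1. SLC43A1, a carrier of large neutral amino acids, stood at 2.88 and 29.4 FPKM. The iron-siderophore binding protein LCN2 stood at 2.03 and 22.1 FPKM, and FAM129A, a stress-induced protein also known as Niban, at 7.55 and 62.2. CLDN4 was one of 5 higher members among 12 measured claudin and tight junction genes. CLDN3 (0.259 to 1.83 FPKM), CLDN7 (5.75 to 13.4) and TJP3 (0.197 to 1.55) were higher too, and none was lower. OCLN, which codes for occludin, stood at 0.0775 and 0.144 FPKM.

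Some of the largest ratios belong to overlapping records, whose reads the authors' counting could have split. GGT1, which codes for a gamma-glutamyltransferase, has 2 records in the coding table. Record ENSG00000286070 stood at 0.094 FPKM untreated and 35.0 treated, the highest ratio of any gene with at least 10 FPKM, and record ENSG00000100031 stood at 41.7 and 16.4. Their sums were 41.8 and 51.4 FPKM, a log2 ratio of 0.29, so the gene as a whole was not called. AC004922.1, which spans ARPC1A and ARPC1B and shares 92.05% of its exonic bases with ARPC1B, stood at 0.330 and 30.7 FPKM, while ARPC1B stood at 114 and 135 and ARPC1A at 121 and 101. On the lower side, ZBED6 stood at 19.1 and 1.40 FPKM, while ZC3H11A, with which it shares 96.0% of its exonic bases, stood at 6.22 and 16.3. COMMD3-BMI1, a readthrough gene, stood at 11.3 and 0.226 FPKM, while BMI1 itself stood at 5.37 and 7.83 and COMMD3 at 14.0 and 14.5. TOMM6, a subunit of the mitochondrial entry gate, stood at 68.4 and 5.73 FPKM and shares all its exonic bases with another annotated gene, AL365205.1. TM4SF19 (3.12 and 27.8 FPKM) shares 49.6% and CD68 (1.38 and 20.7 FPKM) 85.8%. These genes are uncertain for that reason. Of all measured genes, 11.9% shared over 20% of their exonic bases or had no entry in GENCODE 29, against 104 of the 794 higher and 52 of the 288 lower genes.

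Genes that crossed from below 0.1 FPKM to 1 FPKM or more numbered 48, of which 14 were of that overlapping kind. The reverse was seen for 10 genes, of which 7 were. TUBB2B, a beta-tubulin typical of neurons, was one of the 48: it was listed at 0 untreated and stood at 7.35 FPKM treated.

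**Figure D3:**
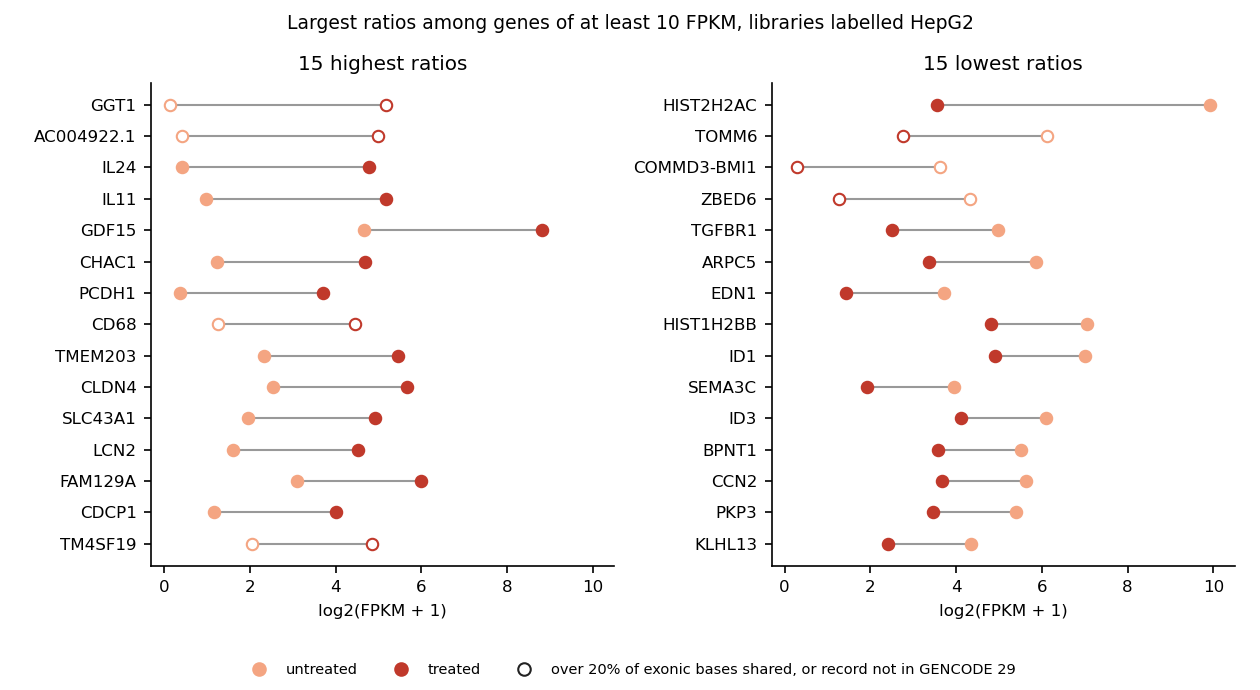
The 15 highest and 15 lowest ratios among genes with at least 10 FPKM in 1 library, drawn as untreated and treated log2(FPKM + 1) joined by a line. Open circles mark records that share over 20% of their exonic bases or are not in GENCODE 29, such as GGT1, AC004922.1, TOMM6, COMMD3-BMI1 and ZBED6.

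ATF4 was 1 of 6 higher members among 14 measured CREB and C/EBP stress factors. A minority of the genes of amino acid synthesis, import and tRNA charging were higher too. ATF4 stood at 85.6 FPKM untreated and 229 treated. TRIB3, a pseudokinase that restrains ATF4, stood at 42.8 and 212 FPKM, and NUPR1, a small stress-induced chromatin protein, at 9.01 and 55.6. DDIT3, the pro-death factor CHOP, stood at 6.30 and 34.2 FPKM, with 39.6% of its exonic bases shared with MARS. CEBPG, the ATF4 partner whose CARE stretch is printed above, stood at 8.64 and 22.9 FPKM. Of 14 CREB and C/EBP stress factors, 6 were higher and none lower, with a median log2 ratio of 0.97. ATF3, often induced with DDIT3, stood at 3.55 and 3.34 FPKM, and ATF5 at 6.48 and 6.47. The eIF2 kinases EIF2AK1 (40.2 and 38.6 FPKM), EIF2AK3 (7.98 and 6.62) and EIF2AK4 (23.4 and 21.7) were within 2-fold, and of 18 kinase and eIF2 genes only PPP1R15A, the phosphatase subunit that restores eIF2, was called, at 12.7 and 37.0 FPKM.

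Genes of amino acid synthesis were higher in part. ASNS, asparagine synthetase, stood at 27.4 FPKM untreated and 162 treated, a ratio of 5.75-fold, with 44.6% of its exonic bases shared with AC079781.5. The transsulfuration enzymes CBS and CTH, which make cysteine from homocysteine, had 7.26 FPKM untreated against 30.2 treated, and 6.90 against 26.5. CBS has a near-identical copy, CBSL, which was listed at 0 in both libraries. PHGDH, the first enzyme of serine synthesis, stood at 51.6 and 182 FPKM, while the later enzymes PSAT1 (55.7 and 102), PSPH (31.1 and 55.9) and SHMT2 (118 and 191) were higher by less than 2-fold. In all, 4 of 14 genes of asparagine, proline and cysteine synthesis and 2 of 13 of serine and one-carbon metabolism were higher. None was lower, and among all genes 6.7% were higher. The 2 became 1 with either a floor or a pseudocount of 5 FPKM, and the 4 became 3 with that pseudocount. ALDH18A1, the entry to proline synthesis, stood at 97.7 and 59.0 FPKM. Among 19 measured amino acid transporters 2 were higher, against 6.7% of all genes, with a median of 0.39. The cystine importer SLC7A11 stood at 13.3 and 14.4 FPKM and its partner SLC3A2 at 204 and 235.

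The medians of the tRNA synthetases of the cytosol and of the mitochondrion lay apart. Of 20 cytosolic enzymes, 5 were higher, none was lower and the median log2 ratio was 0.60. Of 17 mitochondrial enzymes, none was called in either direction and the median was -0.12. WARS, for tryptophan, stood at 33.1 and 91.6 FPKM, CARS, for cysteine, at 20.5 and 56.7, AARS, for alanine, at 83.7 and 216, GARS, for glycine, at 112 and 284, and MARS, for methionine, at 31.3 and 66.9. Of the 16 cytosolic synthetases with a promoter, 7 held CARE. Of these 7, 4 were higher and the median was 1.07, and of the 9 without it, 1, WARS, was higher and the median was -0.03. The 3 others with the motif, IARS (111 and 188 FPKM), TARS (116 and 174) and NARS (58.1 and 63.3), were within 2-fold. Among amino acid transporters the motif made no such split: 5 of 16 held it, none of the 5 was higher, and the medians with and without it were 0.39 and 0.37. Among 12 CREB and C/EBP factors with a promoter the order was the opposite: 1 of 4 with the motif was higher, with a median of 0.07, and 3 of 8 without it, with a median of 0.97. These shares are a description over a few genes.

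Of 9 measured brakes on the growth kinase mTORC1, 2 were higher. SESN2, a leucine sensor, stood at 4.43 and 28.6 FPKM. DDIT4 stood at 44.8 and 114 FPKM, with 41.2% of its exonic bases shared, so that 1 of the 2 is left when genes sharing over 20% are set aside. In the endoplasmic reticulum, 2 of 28 chaperone and degradation genes were higher, about the share of all genes (6.7%), and 0 with a pseudocount of 5 FPKM. They were ERN1, the kinase and nuclease IRE1 (2.1 to 6.27 FPKM), and DNAJB9, which restrains it (6.43 to 15), while HSPA5, the main chaperone there, stood at 167 and 285.

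Growth factor and immediate early lists had higher members and no lower ones, though most members were not called. Of 23 measured EGFR ligands and ERK feedback genes, 8 were higher, none was lower and the median log2 ratio was 0.80. DUSP5, a phosphatase that inactivates nuclear ERK, stood at 13.7 FPKM untreated and 72.2 treated. SPRY4, a feedback inhibitor of receptor kinases, stood at 0.680 and 4.94 FPKM, and the ERK-responsive factor ETV4 at 8.87 and 28.7. The ligands HBEGF (4.97 and 10.6 FPKM) and TGFA (2.96 and 6.61) were not called, because their ratios fell below 2-fold once 1 FPKM was added to each level. Of 22 AP-1 and immediate early factors, 8 were higher and none was lower, with a median of 0.67. FOSL1, an AP-1 subunit, stood at 14.4 and 52.5 FPKM and JUN at 6.24 and 15.8, whereas FOS stood at 3.35 and 3.69. The mRNA decay factor ZFP36 stood at 1.26 and 5.39 FPKM.

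Some arrest and death genes of the p53 network were higher. CDKN1A, the CDK inhibitor p21, stood at 31.6 FPKM untreated and 162 treated, or 5.00-fold, whereas in Huh7 it stood at 13.3 and 6.07. MDM2, the ligase that degrades p53, stood at 9.92 and 24.4 FPKM, and PLK3 at 4.38 and 11.2. Of 22 measured p53 targets, 6 were higher and none was lower, with a median of 0.61, and 2 were higher with a pseudocount of 5 FPKM. Among the BCL2 family, 3 of 15 were higher, against 6.7% of all genes, and 1 was with a pseudocount of 5 FPKM. The 3 were the BH3-only genes HRK (0.324 and 3.81 FPKM) and BBC3 (3.47 and 9.44), and the effector relative BOK (3.43 and 12.9). MCL1, which protects mitochondria, stood at 59.8 and 96.7 FPKM and BCL2L1 at 37.6 and 29.4. Of 24 caspase and death receptor genes 2 were higher, a share close to the 6.7% of all genes, among them CASP4 (19.8 and 45.9 FPKM), the sensor of cytosolic lipopolysaccharide.

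**Figure D4:**
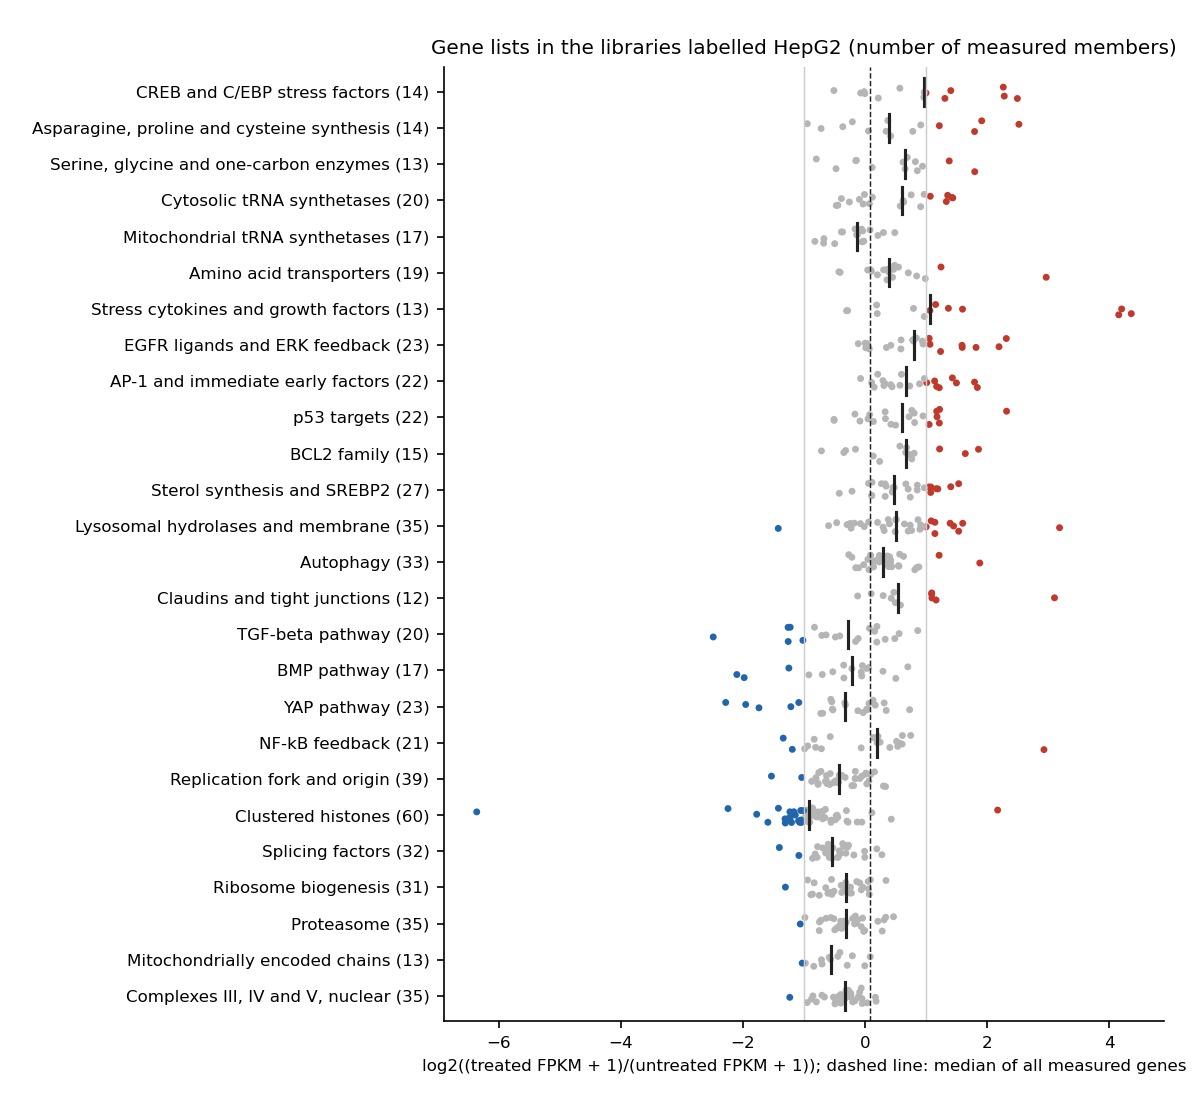
Log2 ratios of the measured members of 26 gene lists, with red and blue dots for genes at least 2-fold higher and lower and a black bar at each list's median. The medians of stress cytokines and of CREB and C/EBP stress factors lie near 1, and that of clustered histones near -0.9, against 0.09 for all genes (dashed line).

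Some sterol and lysosome genes were higher. Of 27 measured genes of sterol synthesis and SREBP2, 7 were higher and none was lower, with a median of 0.48. IDI1, an isoprenoid isomerase, stood at 23.5 and 64.0 FPKM and HMGCS1, an early enzyme of the pathway, at 40.4 and 92.2. Outside the sterol list, the lipid droplet coat protein PLIN2 stood at 16.9 and 58.4 FPKM and ACSS2, which activates acetate, at 26.9 and 91.6. Of 35 lysosomal hydrolase and membrane genes, 9 were higher and 1 was lower. The proteases TPP1 (9.79 and 31.8 FPKM) and CTSL (122 and 273), the sialidase NEU1 (23.4 and 65.9) and the saposin precursor PSAP (238 and 507) were higher. MITF, a transcription factor of lysosomal genes, was the lower one, at 16 and 5.37 FPKM, and its relative TFEB stood at 2.51 and 2.48. None of 17 proton pump genes was called. Of 33 autophagy genes 2 were higher, about the share of all genes (6.7%): ATG2A (7.11 and 28.9 FPKM), which moves lipid to the growing autophagosome, and WIPI1 (6.67 and 16.8), with 28.1% of exonic bases shared.

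Of the genes tied to ferroptosis, some iron and lipid peroxidation genes were called. GPX4, the protein target of RSL3, stood at 167 FPKM untreated and 100.3 treated, within 2-fold. Of 21 measured iron genes 3 were higher, the haem oxygenase HMOX1 (22.7 and 81.0 FPKM) and both ferritin chains, FTL and FTH1, and none was lower, against 6.7% higher among all genes. FTH1 shares 62.4% of its exonic bases with BEST1, and its log2 ratio of 1.06 dropped just below the 2-fold limit with median-of-ratios size factors, where 2 were higher. GPX8, a peroxidase of the endoplasmic reticulum, was lower, at 18.2 and 5.89 FPKM. Of 24 genes of lipid peroxidation 5 were higher and 1 lower, against 6.7% and 2.43% of all genes. The 5 became 3 with size factors and 1 with either a floor or a pseudocount of 5 FPKM, and that pseudocount left 0 lower. ALOX5 (0.471 to 2.27 FPKM) and ALOXE3 (0.390 to 1.85), which oxidise polyunsaturated lipids, were higher. So was GCH1, the first enzyme of tetrahydrobiopterin synthesis (1.79 and 4.73). All 3 stayed below 5 FPKM in both libraries, so none of them is the member left with that floor. AGPS, needed for ether lipids, was lower (18.3 and 7.49). ACSL4, which activates polyunsaturated fatty acids, stood at 19.0 and 20.7 FPKM and LPCAT3 at 14.4 and 13.6. Of 28 genes of the NRF2 programme 3 were higher and none was lower, with a median of 0.09, equal to that of all genes.

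Glucose-responsive genes included higher members, while 2 abundant glycolytic genes had lower levels. MLXIPL, the glucose-sensing factor ChREBP, stood at 2.56 FPKM untreated and 18.5 treated, and TXNIP, which lowers glucose uptake, at 5.41 and 18.4. LDHA, which makes lactate, was lower, at 566 and 205 FPKM, and PGAM1 stood at 395 and 202. The neuronal enolase ENO2 was higher, at 7.32 and 21.7 FPKM. Of 25 glycolysis genes 1 was higher and 1 lower, and of 20 hypoxia targets 2 were higher and 1 lower. Among all genes, 6.7% were higher and 2.43% lower. VEGFA was among the higher hypoxia targets. CA9, a carbonic anhydrase that hypoxia strongly induces, was the lower one at 4.23 and 0.0540 FPKM. It shares 38.5% of its exonic bases with ARHGEF39.

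TGF-beta, BMP and YAP genes had members called lower and none called higher. TGFBR1, the type I TGF-beta receptor, stood at 30.6 FPKM untreated and 4.64 treated, or 5.6-fold lower, while the type II receptor TGFBR2 stood at 24.8 and 17.5 and the signal carriers SMAD2 (9.74 and 10.3) and SMAD3 (25.6 and 23.6) were within 2-fold. In Huh7 TGFBR1 stood at 2.97 and 8.14 FPKM. The coreceptor TGFBR3 (14.0 and 5.42 FPKM), the decoy receptor BAMBI (19.6 and 7.60) and the feedback inhibitor SMAD7 (14.7 and 6.74) were lower, as was the ligand TGFB2 (2.70 and 0.544), with 26.6% of exonic bases shared. In all 5 of 20 members were lower, with a median of -0.28. Of 17 BMP genes 3 were lower: the target genes ID1 (127 and 28.9 FPKM) and ID3 (67.3 and 16.3), which block differentiation factors, and the inhibitor SMAD6 (22.7 and 9.01). In Huh7, ID1 had 676 FPKM untreated against 218 treated, and ID3 89.2 against 20.2.

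Of 23 YAP genes 5 were lower, with a median of -0.33. EDN1, the vasoconstrictor endothelin, stood at 12.2 and 1.72 FPKM. The matricellular proteins CCN2 (48.1 and 11.7 FPKM), CCN1 (78.7 and 36.6) and THBS1 (38.7 and 10.9) and the repeat protein ANKRD1 (5.05 and 1.61) were the others. YAP1 itself stood at 39.3 and 38.4 FPKM and its partner TEAD1 at 17.0 and 17.4. AXL, another known target, stood at 80.0 and 134 FPKM. NF-kB feedback was mixed, with TNFAIP3 (11.3 and 3.86 FPKM) and PTGS2 (10.1 and 3.86) lower and LCN2 higher among 21 genes. Among all genes, 2.43% were lower and 6.7% higher.

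Matrix and cytoskeleton lists each had a few members called, in both directions except for tubulins, whose called members were all higher. ARPC5, a subunit of the Arp2/3 complex that branches actin, stood at 57.1 FPKM untreated and 9.38 treated, or 5.6-fold lower, while the subunits ARPC2 (48.2 and 53.4), ARPC3 (104 and 88.1) and ACTR3 (23.9 and 24.8) were within 2-fold. The guidance protein SEMA3C stood at 14.6 and 2.76 FPKM and the desmosomal protein PKP3 at 41.0 and 9.99. BPNT1, a phosphatase of sulfation by-products, stood at 45 and 10.9 FPKM, and KLHL13, an adaptor of a mitotic ubiquitin ligase, at 19.4 and 4.35. Of 18 measured collagens 2 were higher and 2 lower, against 6.7% and 2.43% of all genes. COL6A2 was among the higher, at 0.201 and 4.17 FPKM, and COL5A1 among the lower, at 42.5 and 16.2. The keratin KRT7 was lower (63.8 and 29.9 FPKM). Of 15 tubulins 3 were higher, against 6.7% of all genes, and none was lower. The 3 were TUBB2B, TUBB4A (0.104 and 4.14 FPKM) and TUBA1A (14.0 and 57.1).

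Histone transcripts held the lowest ratio. HIST2H2AC, a clustered H2A gene, stood at 968 FPKM untreated and 10.8 treated, or 82.3-fold lower, and at 698 and 580.1 in Huh7. Its near-identical relative HIST2H2AA3 stood at 1296 and 617 FPKM, and with reads shared between such copies the value is uncertain. HIST1H2BB stood at 131 and 26.9 FPKM. Of 60 measured clustered histone genes 21 were lower and 1 was higher, with a median of -0.91. The higher one, HIST2H4A, stood at 20.4 and 95.5 FPKM, and its copy HIST2H4B at 20.2 and 21.9. Of 39 replication genes 2 were lower, with a median of -0.43, POLE2 at 8.72 and 3.74 FPKM and POLA2 at 42.3 and 14.0, with 35.1% of exonic bases shared. MCM7, of the replicative helicase, stood at 198 and 113 FPKM. Of 32 spindle genes 1, TOP2A (71.8 and 33.5 FPKM), was lower, with a median of -0.10. These replication and spindle counts rest on 1 or 2 genes, against 2.43% lower among all genes.

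Large housekeeping groups had medians below that of all genes. The median was -0.53 over 32 splicing factors, -0.32 over 31 ribosome biogenesis genes, -0.31 over 35 proteasome genes and -0.27 over 78 mitochondrial ribosome genes, against 0.09 for all genes. The 1428 genes that reached 50 FPKM or more had a median of -0.13, and the lists were not matched for level. Only 2, 1, 1 and 1 of their members were called lower, against 2.43% of all genes, and none was called higher. HNRNPL, a splicing regulator, stood at 156 and 73.1 FPKM, NOLC1, of the nucleolus, at 51.8 and 20.4, and the proteasome subunit PSMA4 at 112 and 53.4. The 13 mitochondrially encoded genes had a median of -0.56, with MT-CO3 at 722 and 440.2 FPKM and MT-CO1 at 1938 and 1585. Cytosolic ribosomal proteins had a median of -0.08 over 79 genes, with 1, the p53-responsive RPS27L (12.7 and 36.0 FPKM), higher. Among larger families, 28 of 180 solute carriers were higher and 2 lower, and 12 of 363 zinc finger genes named ZNF were higher and 2 lower. The higher share was above the 6.7% of all genes for solute carriers and below it for ZNF genes. With a pseudocount of 5 FPKM, 10 solute carriers and 2 ZNF genes were higher, against 214 of all 11843 genes.

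Long noncoding transcripts were called more often, from lower levels. Of 1315 measured transcripts, 178 (13.5%) were higher and 69 (5.25%) lower. Their median log2 ratio was 0.31, and 0.16 after scaling by median-of-ratios size factors, so transcripts of this table are read against that shift. LINC00958, an intergenic RNA, was higher: transcript LINC00958-201 stood at 3.17 FPKM untreated and 34.2 treated, and its 7 transcripts summed to 7.71 and 44.4. MALAT1, a nuclear RNA at sites of splicing, was lower: its most abundant transcript in the untreated library stood at 50.2 and 6.71 FPKM, and its 17 transcripts summed to 86.0 and 21.7, against 25.4 and 59.1 in Huh7. NEAT1, the scaffold of paraspeckles next to MALAT1 on chromosome 11, summed to 2.28 and 6.01 FPKM. NNT-AS1 summed to 7.74 and 0.940 FPKM, and SNHG4, whose gene overlaps MATR3, to 35.4 and 12.6. MATR3, an RNA-binding protein with 2 records, summed to 56.7 and 30.2 FPKM. Of 31 small nucleolar RNA host gene transcripts 3 were higher and 5 lower, with a median of -0.38. Of 435 assembled transcripts with no annotation 65 were higher and 22 lower. Of the called transcripts, 83 of 178 higher and 33 of 69 lower ones shared over 20% of their bases with coding exons or had no GENCODE 29 entry. Where bases are shared, the signal cannot be told apart from that of coding genes, and for transcripts with no entry the sharing was not measured.

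The authors' deposited enrichment tables for the same pair of libraries were set beside the levels. How the genes of the Gene Ontology table were chosen, and what its heading CAD stands for, is not explained there. The authors' deposited table of Gene Ontology terms names 3213 genes, of which 1743 (54.2%) were below 1 FPKM in both libraries, with median levels of 0.0116 FPKM untreated and 0.0662 treated. Of those, 1303 stood higher and 440 lower in the treated library. Of the 1082 genes called here, 853 (78.8%) are in that table, and they make up 26.5% of it. Of its 12517 terms, 635 have a corrected p under 0.05 in the authors' deposited table. The smallest, 7.605e-20, belongs to "intrinsic to plasma membrane", with 436 listed genes, of which 291 (66.7%) were below 1 FPKM in both libraries, 73 were higher and 20 lower. For "cell adhesion", 198 of 310 listed genes (63.9%) were below 1 FPKM. The nucleosome term, chosen after its values were seen, differs: in the authors' deposited table it has a corrected p of 2.7229e-08 and 38 genes, of which 37 are histones, 3 were below 1 FPKM, 22 were lower and 1 was higher.

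None of 275 KEGG pathways has a corrected p under 0.05 in the authors' deposited table. The smallest, 0.0651, belongs to Alcoholism, and 34 of its 60 listed genes are histones, with 5 genes higher and 21 lower. Systemic lupus erythematosus lists 34 histones among 41 genes. In the Hippo pathway, which contains the YAP genes, 10 of 44 listed genes were lower and 4 higher, with a corrected p of 0.514 in the authors' deposited table.

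**Figure D5:**
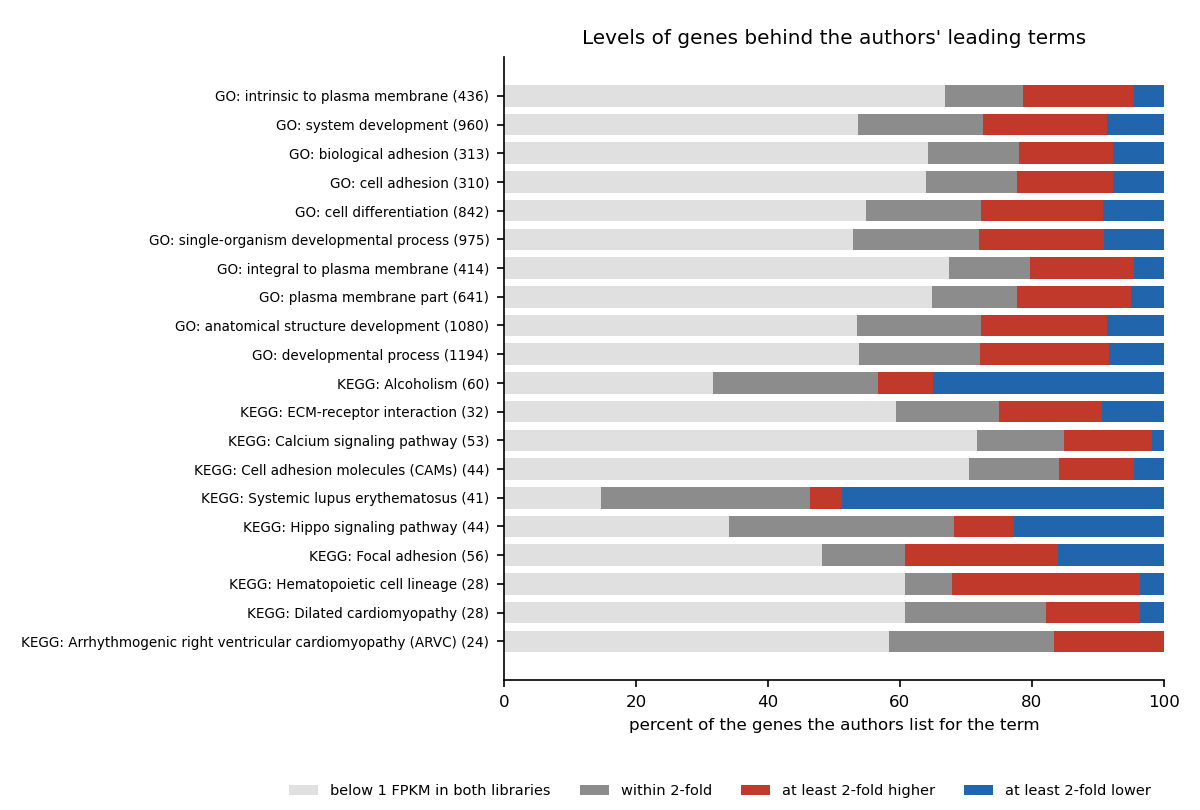
For the 10 Gene Ontology terms and 10 KEGG pathways with the smallest corrected p in the authors' deposited tables, bars show the percent of listed genes below 1 FPKM in both libraries, within 2-fold, higher and lower. Membrane and adhesion terms are mostly pale, with 66.7% of genes below 1 FPKM in the first, while Alcoholism and Systemic lupus erythematosus hold the widest blue parts.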

How the data were processed

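RNA was sequenced from 4 libraries, 1 in each group, made from Trizol-extracted total RNA with a TruSeq kit, per the labels. The authors deposited FPKM per coding gene and per long noncoding transcript, per the file headers, and enrichment tables with p-values and the other columns of listed genes per term. The submitters' processing notes name, without roles, GATK, StringTie 1.3.1, HISAT2, SAMtools 0.1.18, Picard 1.96, Bowtie2 2.2.8 and Cuffdiff 2.1.1. A build is not given in the sources used; of 19739 coding genes, 19664 have an identifier in GENCODE 29 (GRCh38), and 19663 positions overlap it.

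Ratios used a pseudocount of 1 FPKM, a floor of 1 FPKM and a 2-fold limit, computed in Python 3.11.15 with pandas 2.3.3 and numpy 2.4.6, and checked on simulated data. No count model was fitted. Alternatives varied the pseudocount, the floor, the scaling and the handling of shared records. Depth came from the step between the lowest FPKM values of genes with 1 transcript. Records that share a gene name were summed for the 74 gene lists. Named genes are the 15 highest and 15 lowest ratios with at least 10 FPKM, the list members with the largest ratios (up to 6 a list), the 10 most abundant genes a library, all label-check markers, GPX4, the 12 highest and 12 lowest noncoding transcripts and the 10 leading terms a table. Others are named for their role and were chosen after their values were seen. Members and lists were chosen with earlier results of these data known. Not all genes the rules name are printed.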

Additional observations from a re-analysis of the deposited data

Results flagged for a closer look

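These genes were at least 2-fold apart in opposite directions after treatment in the libraries labelled HepG2 and in Huh7. The difference between the lines was not tested, since each group holds 1 library. CDKN1A had a log2 ratio of 2.32 in the libraries labelled HepG2 and -1.01 in Huh7, INHBE 1.6 and -1.23, and TMEM203, a small membrane protein, 3.13 and -3.18. TMEM203 levels were 4 FPKM untreated against 42.8 treated under the HepG2 label, and 36.0 against 3.08 in Huh7. TGFBR1 had -2.49 and 1.2, and TOP2A, the topoisomerase of dividing cells, -1.08 and 1.12.

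The other 3 share most of their exonic bases with a neighbour. AC004922.1 had 4.58 and -2.37 (92.05% shared), COMMD3-BMI1 -3.32 and 2.74 (all shared) and ZBED6 -3.07 and 2.54 (96.0% shared).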

How the results depend on the processing

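No paired analysis was possible because each group holds 1 library and no result comes from a test. The counts of called genes depended most on the pseudocount. With 0.1 FPKM, 1331 coding genes were higher, and 417 long noncoding transcripts were higher and 133 lower. With 5 FPKM, 214 coding genes were higher and 121 lower, and 16 noncoding transcripts were higher and 8 lower. With a floor of 5 FPKM, 29 noncoding transcripts were higher and 15 lower. Summing transcripts per gene name left 109 higher and 33 lower, out of fewer features (1088). The coding counts were 864 higher and 253 lower after rescaling to equal FPKM sums, 701 and 343 with median-of-ratios size factors, and 690 and 236 among genes sharing at most 20% of exonic bases. The sums over gene names and over transcripts and the limit on shared bases were added after seeing the data. Of the list counts over all settings, 127 moved by over 1.5 times and 1055 did not. With a pseudocount of 5 FPKM, the higher members fell from 8 to 3 for AP-1, 8 to 4 for EGFR and ERK, 7 to 3 for stress cytokines, 7 to 4 for sterol synthesis and 5 to 1 for claudins, and the lower ones from 5 to 1 for TGF-beta. Claudins had 2 higher with a floor of 5 FPKM. Under the pseudocounts, floors and scalings, no ratio of a called named gene, with its records summed, changed sign. The GGT1 record ENSG00000100031, at -1.29, became 0.29 when both records were summed. Under the scalings, the medians of the Arp2/3, ESCRT-III, MHC class I and keratin lists changed sign, and no direction is given for them. Leaving out a library was not possible with 1 a group.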
